A study of Drosophila melanogaster with 14 samples.

Results

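The pickpocket genes of Drosophila melanogaster encode sodium channel subunits of the DEG/ENaC (degenerin and epithelial sodium channel) family. Members were chosen by name, with earlier results of these data known. The rule took every gene of the RNA count table whose FlyBase symbol is ppk, rpk or ppk followed only by digits. This gave 30 of 17807 genes. RNA was sequenced from wing imaginal discs, sacs of epithelium from which the wing and the back of the thorax develop, taken from wandering larvae of the third instar (instar 3) grown at 25 °C. The wildtype group was yw and the nub1 group was yw;nub[1], so both carried y and w, and nub[1] is an allele of the POU domain gene nubbin. Each genotype had 3 libraries, with totals of 58434785 to 82407049 counts in wildtype and 72134981 to 83448836 in nub1. The series also holds ATAC-seq and ChIP-seq samples, which were not analysed here.

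DEG/ENaC subunits have 2 membrane-spanning segments with a large extracellular loop between them, and they assemble as trimers that pass sodium and are blocked by amiloride. In flies, pickpocket subunits are best known from sensory neurons, where they serve touch, nociception, water and salt taste and pheromone detection. Some also act in the epithelium of the trachea, the airways, in the removal of liquid. The wing disc is mostly epithelium, with tracheal branches and muscle precursors attached to it.

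Checks of the labels and libraries came first. Levels are CPM, read counts scaled to a common library size with TMM factors. The targeted gene nub stood at 329 ± 12.2 CPM in wildtype libraries and 10.9 ± 3.09 CPM in nub1 libraries (mean ± SD, n = 3), and pdm2, its neighbour, went from 57.1 ± 0.394 to 0.107 ± 0.0426 CPM. Both fell (log2 fold change -4.92 ± 0.25 and -9.04 ± 0.09, SE; edgeR quasi-likelihood adjusted p = 0.000158 and 6.88e-11). Of the 9 wing disc markers, which include nub and pdm2, all were tested and all were present in wildtype. Their summed level was 2646 to 2706 CPM in wildtype and 2143 to 2294 CPM in nub1 libraries. Of these markers, 2 were called higher and 5 lower, with nub and pdm2 among the 5. Dropping wildtype replicate 2, wildtype replicate 3, nub1 replicate 1 or nub1 replicate 2 left 1 higher marker, and dropping nub1 replicate 3 left 3. Among nub1 libraries, replicate 3 stood apart, with 31.7 and 24.5 chi-square per degree of freedom against replicates 1 and 2 and a value of 4.09 between those. Without it the calls of ppk and ppk22 were lost, and those of the other 5 tested members were as before. The labels do not say that replicates came from separate animals or crosses, so p-values measure only how far these libraries vary, which may be technical variation. The labels give 1 nub allele, and nub[1] and any other difference between the stocks cannot be told apart. In whole discs, fewer cells of a type and less RNA per cell cannot be told apart either.

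Most of the family was at or near zero in the wing disc. Of the 30 members, 7 had enough counts to be tested (23.3%, against 51.6% of all genes), 17 had between 1 and 38 counts over the 6 libraries, and 6 had none. The 7 tested members were ppk13, rpk, ppk29, ppk28, ppk, ppk22 and ppk23. Of the 7, 2 rose in nub1 discs (rpk and ppk), 3 fell (ppk13, ppk28 and ppk22) and 2 did not pass the test (ppk29 and ppk23), by edgeR at an adjusted p under 0.05 over all genes. Of all 9186 tested genes 48.3% were called, 24.4% higher and 23.9% lower, so a count of 5 calls among 7 members is no result about the family. Larger changes were rarer: 2.14% of tested genes were called with at least a 4-fold rise and 1.97% with at least a 4-fold fall. The median log2 fold change of the 7 was -0.03, beside -0.00303 over all tested genes. Only its wildtype libraries put ppk13 above the filter on low counts.

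ppk13 was nearly silent in nub1 discs. Its role in the fly is not given here. The gene (FBgn0053508) lies on chromosome arm 2L from 21086790 to 21088751 (Release 6, the assembly of dm6). In wildtype libraries it had 34.5, 31.5 and 36.4 CPM, from 2126, 1800 and 2981 reads, and in nub1 libraries 0.0552, 0.0912 and 0.0470 CPM, from 4, 7 and 4 reads. Every nub1 library lay below every wildtype library, by more than the spread within either group. The log2 fold change was -9.02 ± 0.13 (edgeR adjusted p = 3.17e-10), the ninth largest fall of 9186 genes. From the pooled reads, 6907 against 15, the wildtype level was 538-fold that of nub1, with a 95% interval of 326 to 961 that covers counting error only. Leaving out single libraries gave log2 fold changes of -9.34 to -8.82, all called.

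rpk (ripped pocket), an amiloride-sensitive DEG/ENaC channel first described in the ovary and early embryo, changed in the opposite direction. It lies on 3R from 4645981 to 4648884 (FBgn0022981). Its level was 5.55, 5.67 and 5.26 CPM in wildtype libraries and 22.8, 18.5 and 19.9 CPM in nub1 libraries. The lowest nub1 library was far above the highest wildtype library. The rise was 3.72-fold (log2 fold change 1.89 ± 0.08; edgeR adjusted p = 4.2e-07), and 4.46% of tested genes had a larger change in either direction. It was called without each library in turn, at 1.81 to 1.96 on the log2 scale. An antisense RNA gene, asRNA:CR44155, lies within rpk and had 1 read in wildtype and 12 in nub1 libraries, and reads of the pair may be shared, because no source used here gives the strand setting of the counting.

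**Figure D1:**
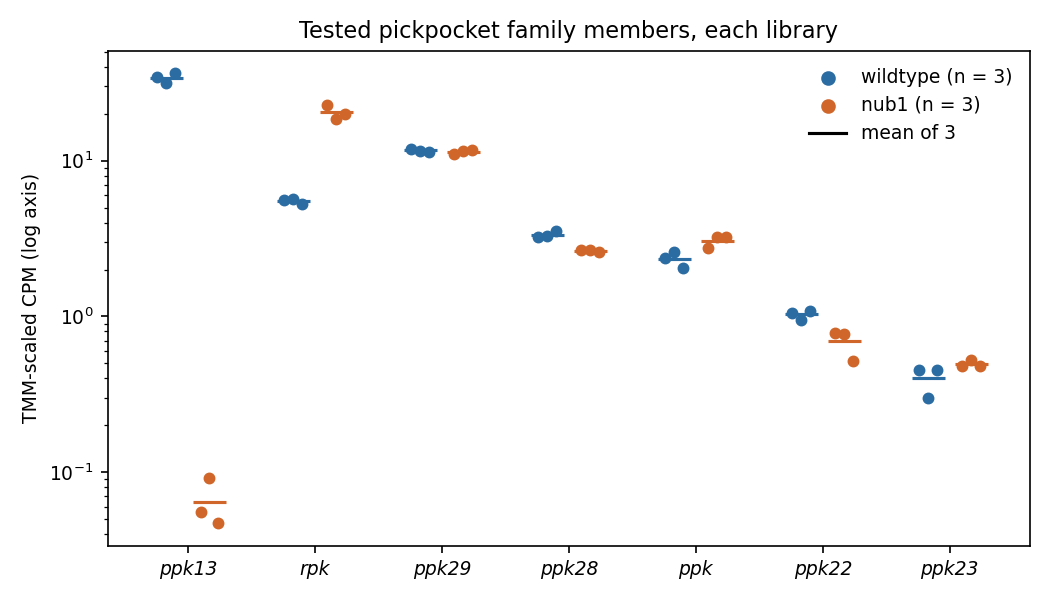
TMM-scaled CPM (log axis) of the 7 tested family members in each library, wildtype in blue and nub1 in orange, 3 libraries each, with the mean as a line. ppk13 drops from 31.5 to 36.4 CPM in wildtype to under 0.1 CPM in nub1, rpk rises from 5.26 to 5.67 CPM to 18.5 to 22.8 CPM, and the others stay near their wildtype levels.

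ppk, the founding member, is known from nociceptive sensory neurons of the larval body wall, where it acts in mechanical nociception and locomotion. It lies on 2L from 14378218 to 14381172 (FBgn0020258). Its level was 2.37, 2.59 and 2.04 CPM in wildtype and 2.75, 3.23 and 3.23 CPM in nub1 libraries, so the groups did not overlap, although the gap between them was smaller than the spread within either. It rose 1.32-fold (log2 fold change 0.40 ± 0.12; edgeR adjusted p = 0.0255). The call was lost without wildtype replicate 3 (adjusted p = 0.0892) and without nub1 replicate 2 or 3 (0.0874 and 0.0601). ppk26, which partners ppk in mechanical nociception, had no read in any library.

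ppk28, ppk23, ppk29 and ppk25 are known from taste neurons. ppk28 is the water taste channel, on the X from 16806068 to 16808515. It had 3.21, 3.29 and 3.53 CPM in wildtype and 2.65, 2.66 and 2.60 CPM in nub1 libraries. All nub1 libraries were lower, and the fall was modest (log2 fold change -0.35 ± 0.09; edgeR adjusted p = 0.0127), with the call lost without wildtype replicate 3 (adjusted p = 0.0538). Its whole span is covered by the antisense RNA gene asRNA:CR44053, which was not called (log2 fold change 0.43).

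ppk29 and ppk23 act with ppk25 in the detection of pheromones during courtship. ppk29, on arm 2R, had 11.96, 11.5 and 11.4 CPM in wildtype and 11.04, 11.5 and 11.7 CPM in nub1 libraries. The groups overlapped and the log2 fold change was -0.03 ± 0.05 (edgeR adjusted p = 0.657). The pooled nub1 level was 0.983 of wildtype, with a 95% counting interval of 0.929 to 1.04. ppk29 overlaps the potassium channel gene sei over 119 bp and CG13563 over 1832 bp, and neither of these was called (log2 fold changes 0.05 and 0.68), so the reads of the 3 genes may be shared.

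ppk23 was close to the lower limit of the test, at 0.455, 0.297 and 0.452 CPM in wildtype and 0.483, 0.521 and 0.482 CPM in nub1 libraries. Its nub1 libraries all lay above its wildtype libraries, but it was not called (log2 fold change 0.29 ± 0.22; edgeR adjusted p = 0.303). ppk25 had no read, and its span lies within mim and CheB42c, where reads may have gone to another gene. The remaining tested member, ppk22, had 1.06, 0.944 and 1.09 CPM in wildtype and 0.786, 0.769 and 0.517 CPM in nub1 libraries, the lowest being nub1 replicate 3. It fell (log2 fold change -0.59 ± 0.19; edgeR adjusted p = 0.0339), but the call was the least stable of the 5: it was lost without any 1 of the wildtype libraries (adjusted p = 0.0793, 0.0540 and 0.0957), without nub1 replicate 2 or 3 (0.0535 and 0.0926) and with DESeq2 (0.0750). Counting every tested member, nub1 libraries all lay above wildtype in 3 and all below in 3, which compares with 29.7% and 30.3% of all tested genes.

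**Figure D2:**
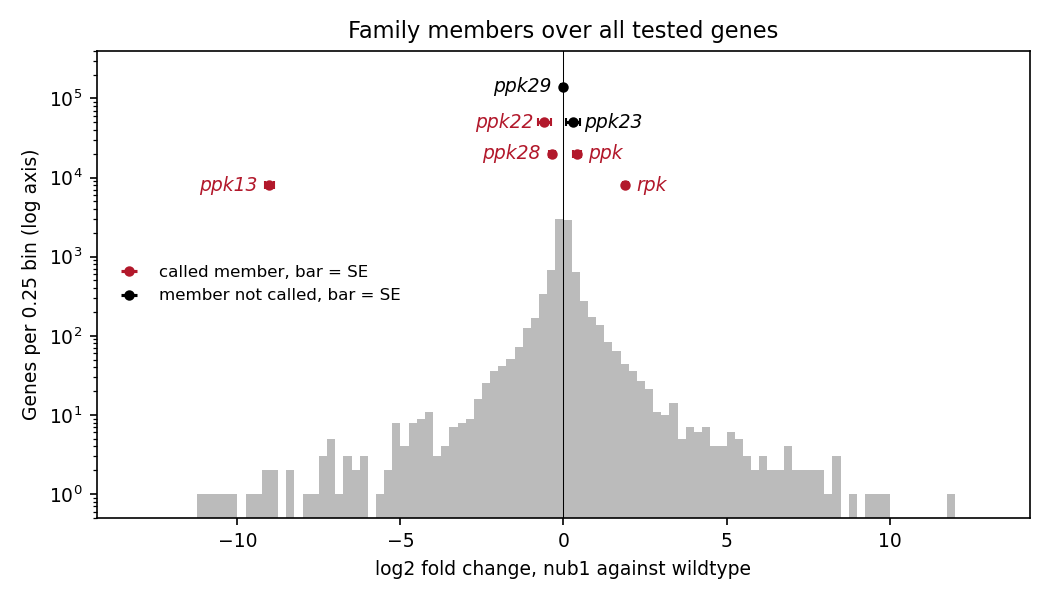
Histogram of the log2 fold changes of all 9186 tested genes (grey, genes per bin on a log axis), with the 7 tested family members above it as points with their SE; the height of the points has no meaning. ppk13 at -9.02 lies in the far lower tail and rpk at 1.89 in the upper tail, while the other 5 lie between -0.59 and 0.40.

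The family as a sum was lower in nub1 discs, and the sum hid the opposite changes. The 30 members together held 59.5, 56.1 and 60.6 CPM in wildtype and 41.2, 37.7 and 39.0 CPM in nub1 libraries, or 58.8 ± 2.35 against 39.3 ± 1.76 (SD, n = 3). Without ppk13 the order turned round, at 24.6 ± 0.388 against 39.2 ± 1.77 CPM. Without both ppk13 and rpk the other 28 members summed to 19.1 ± 0.277 and 18.8 ± 0.488 CPM, and the groups overlapped. As a share of the family's reads, ppk13 went from 58.1% to 0.164%, rpk from 9.35% to 51.9% and ppk29 from 19.8% to 29.0%. These shares are of reads, and a longer transcript gives more reads.

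Per kilobase of gene span, which includes introns, the level in wildtype discs ran from ppk13 at 17.4 CPM per kb through ppk29 at 2.75, rpk at 1.89, ppk28 at 1.37, ppk at 0.789 and ppk22 at 0.464 to ppk23 at 0.150 CPM per kb. In nub1 discs the order began with rpk at 7.02 CPM per kb, followed by ppk29 at 2.70, ppk28 at 1.08, ppk at 1.04, ppk22 at 0.312 and ppk23 at 0.185, and ended with ppk13 at 0.0329 CPM per kb. In nub1 discs ppk28 and ppk did not differ beyond the spread of their libraries on this scale. Exon lengths were not used here, so members with long introns are placed too low.

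The 23 members that were not tested had at most 13 reads in any library. The 7 of them with at least 10 reads in all were ppk12, ppk8, ppk9, ppk18, ppk30, ppk19 and ppk20. ppk12 had 4, 5 and 0 reads in wildtype and 13, 6 and 10 in nub1 libraries, a ratio of nub1 to wildtype, scaled for depth, of 2.76 with a 95% counting interval of 1.27 to 6.63. For ppk9 the reads were 2, 1 and 3 against 3, 8 and 10, a ratio of 3.00 (1.17 to 9.08). Both ratios were above 1 by more than counting error, which leaves out the variation between libraries. With no filter on low counts, the edgeR test over replicates called neither (adjusted p = 0.133 for ppk12 and 0.0865 for ppk9).

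ppk8 had 3, 5 and 8 reads against 9, 5 and 7 (ratio 1.12, 0.559 to 2.30), and it overlaps DIP-alpha over 13838 bp, a gene that was called higher. ppk18 had 5, 0 and 3 against 6, 4 and 6 (ratio 1.71, 0.692 to 4.62). Neither ratio was away from 1 by more than counting error. ppk18, ppk11 and ppk16 lie next to each other on 2L within 9.67 kb. ppk11, known for liquid clearance from the trachea and for salt taste, and ppk16, which acts with ppk11 in synaptic homeostasis at the larval neuromuscular junction, had no read. These 2 genes share the same span, and reads that match both may have been left uncounted.

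A second group, ppk21, ppk20, ppk30 and ppk19, lies on 3R within 9.445 kb (29664779 to 29674223). ppk19, another salt taste gene, had 4, 2 and 7 reads in wildtype and 2, 1 and 3 in nub1 libraries. ppk20 had 2, 3 and 4 against 0, 2 and 0, ppk30 had 3, 4 and 4 against 0, 4 and 6, and ppk21 had none. The 4 genes together had 33 reads in wildtype and 18 in nub1 libraries, a ratio of 0.467 (95% counting interval 0.248 to 0.854), with 9, 9 and 15 against 2, 7 and 9 reads per library. The raw counts just met at 9, in libraries of different depth. Scaled for depth, every nub1 library lay below every wildtype library. None of the genes was called with no filter (edgeR adjusted p = 0.128 for ppk20, 0.207 for ppk19 and 0.751 for ppk30). Obp99a, an odorant binding protein gene between ppk30 and ppk19, fell from 11.3 to 5.61 CPM (edgeR adjusted p = 0.000302).

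Of the other untested members, 10 had 1 to 8 reads in all. ppk10 had 0 reads in every wildtype library and 3, 3 and 2 in nub1 libraries. By the counting interval of its pooled reads, ppk10 was at least 1.46-fold higher. It was the only one of the untested members that was called when no filter was used (edgeR adjusted p = 0.0398). Its nearest neighbour loh, 53 bp away, rose in the same libraries (log2 fold change 1.71; edgeR adjusted p = 6.77e-06). ppk3, ppk15, ppk6, ppk17 and ppk24 had reads only in nub1 libraries, at most 4 in all, and ppk31 and ppk7 had 1 read each, in wildtype. ppk27 had 4 reads in each group, and ppk5 had 4 and 2. The 6 members at 0 in every library were ppk11, ppk14, ppk16, ppk21, ppk25 and ppk26. A count of 0 allows up to 3 reads over a group, or 0.0150 CPM for the wildtype group and 0.0128 CPM for the nub1 group, so expression under this level was not detectable. This limit does not hold for ppk11, ppk16 and ppk25, whose reads may have been left uncounted or given to another gene. A share of 20.8% of all genes had no read either, against 20.0% of the family.

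**Figure D3:**
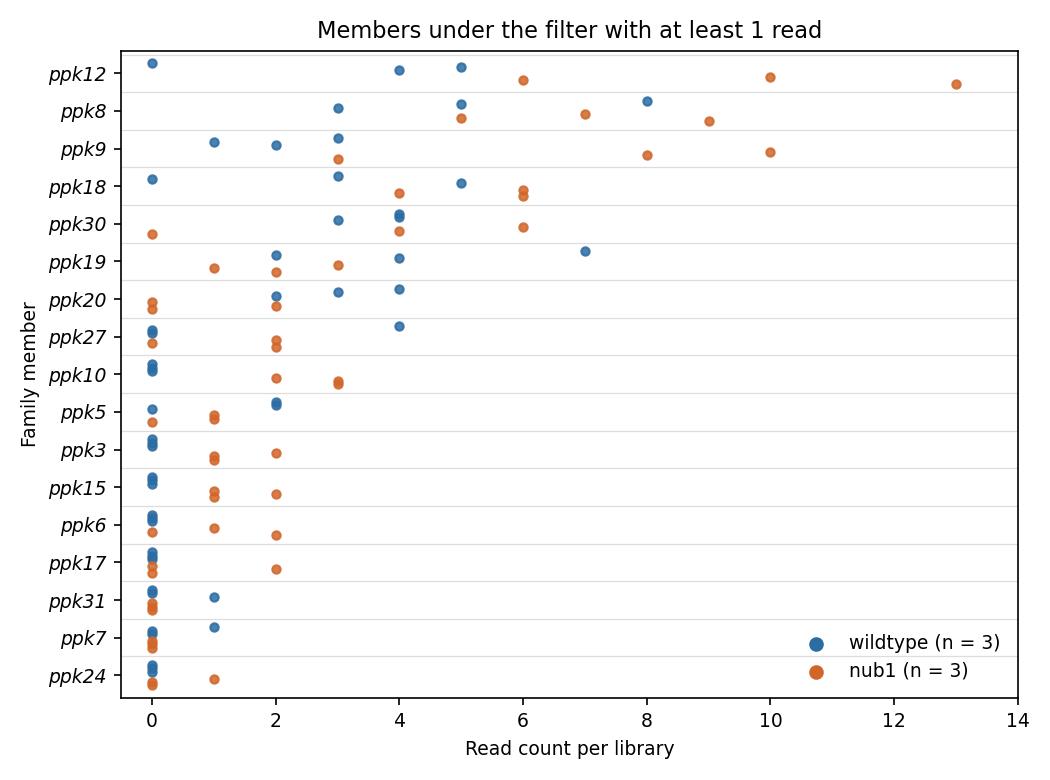
Reads per library of the 17 family members that were not tested and had at least 1 read, wildtype in blue and nub1 in orange, 3 libraries each, slightly offset so that equal counts can be seen. ppk12 reaches 13 reads and the lowest rows have a single read.

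The genes around ppk13 were measured too, and the fall was shared by its neighbours. CG33509 ends 283 bp before ppk13 and had 1072, 895 and 1622 reads in wildtype and 0, 4 and 2 in nub1 libraries. It fell from 17.6 to 0.0252 CPM (-9.34 ± 0.27 on the log2 scale; edgeR adjusted p = 1.64e-07). On the other side, CG9259 begins 623 bp after ppk13 and had 16, 19 and 21 reads in wildtype and none in nub1 libraries. By the counting interval of its pooled reads, CG9259 was at least 17.1-fold lower (edgeR adjusted p = 0.000257). The wildtype and nub1 libraries did not overlap for either gene, but both genes passed the filter on low counts through their wildtype libraries alone.

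The next genes on each side were too low to test. CG33510 had 18 wildtype and 3 nub1 reads (7.01-fold lower, 95% counting interval 2.05 to 37.1). CG33511 had 16 and 0 (at least 4.50-fold lower by the same interval) and CG14397 had 11 and 2 (6.42-fold lower, 1.40 to 59.6). From CG33511 to CG14397, 6 genes in a row over 13.7 kb (2L, 21081127 to 21094864) thus had 10597 wildtype and 26 nub1 reads. This stretch was delimited after its values were seen. Beyond it, FBgn0284251 had 107 CPM in wildtype libraries, against 109 CPM in nub1 libraries, and was not called (log2 fold change 0.03 ± 0.05; edgeR adjusted p = 0.666). On the far side, tadr was higher, with 15 against 42 reads (edgeR adjusted p = 0.0373). That call did not hold when wildtype replicate 1, 2 or 3 or nub1 replicate 1 or 2 was dropped (adjusted p = 0.0501, 0.0990, 0.0675, 0.0628 and 0.126), nor with DESeq2 (0.130) or the replicate block (0.0573). ppk13 lies 8.46 Mb from nub and 8.40 Mb from pdm2 on the same arm, where 27.1% of 1583 tested genes were called lower.

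**Figure D4:**
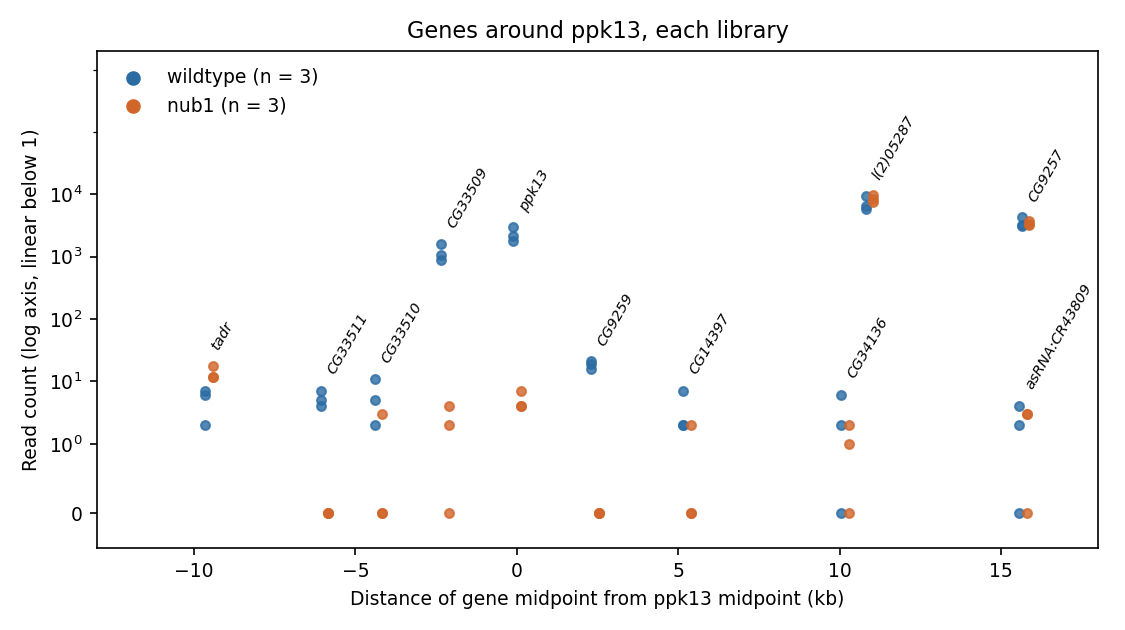
Reads per library (log axis, linear below 1) of the genes within 15 kb of ppk13, by the distance of each gene's midpoint from that of ppk13 in kb, wildtype in blue and nub1 in orange, 3 libraries each. From CG33511 to CG14397 the nub1 libraries lie at 0 to 7 reads, while CG9257 further on has at least 3144 reads in every library.

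The genes on each side of the other called members were compared with them in the same way. Dlip2, 325 bp before rpk, and Karybeta3, 291 bp after it, rose by 0.18 and 0.28 on the log2 scale (edgeR adjusted p = 0.0104 and 0.000114), against 1.89 for rpk. spel1 and elB, the genes on each side of ppk, rose by 0.21 and 0.41 (edgeR adjusted p = 0.00343 and 1.46e-05), beside 0.40 for ppk. CG13639, 98 bp after ppk22, fell by 1.11 on the log2 scale (edgeR adjusted p = 0.000357), from 1.34 to 0.622 CPM, while CAH4 on the other side of ppk22 was too low to test. The genes next to ppk28, CG13005 and CG4829, were not called (log2 fold changes -0.04 and -0.23).

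Related genes gave a mixed picture. Nach, the DEG/ENaC gene also known as ppk4, which acts with ppk11 in liquid clearance from the trachea, had 0 reads in wildtype and 1 in nub1 libraries. Mec2, a stomatin family gene named after a nematode gene needed by touch channels, fell from 3.50 ± 1.02 to 1.31 ± 0.619 CPM (-1.42 ± 0.44 on the log2 scale; edgeR adjusted p = 0.0438). Mec2 was not called when wildtype replicate 1 or 2 or nub1 replicate 1 or 2 was dropped (adjusted p = 0.125, 0.105, 0.0659 and 0.0773), with no filter (0.112) or with limma-voom (0.0505). Nedd4, a ubiquitin ligase whose mammalian relatives remove ENaC from the membrane, rose from 132 to 154 CPM (0.23 ± 0.03 on the log2 scale; edgeR adjusted p = 0.000134).

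Of 22 other sodium channel and sodium transport genes, 14 were tested, 7 rose and 2 fell, with a median log2 fold change of 0.30. Leaving out single libraries gave 6 to 9 that rose, the 9 being without nub1 replicate 3. These counts, and those of the lists that follow, stand beside 24.4% of all tested genes called higher and 23.9% called lower. unc79, a subunit of the NALCN sodium leak channel complex, was at 0.367 CPM in wildtype and rose to 12.2 CPM (5.04 ± 0.11 on the log2 scale; edgeR adjusted p = 5.56e-09). NaCP60E, a voltage-gated sodium channel family gene, rose from 34.2 to 49.6 CPM (0.54 ± 0.04; 7.51e-06), and nrv2, a beta subunit of the sodium pump, from 217 to 278 CPM (0.36 ± 0.04; 0.000132). Nha2, a sodium and proton antiporter gene, had 1 read in wildtype and 121 in nub1 libraries, a ratio of 104 (95% counting interval 18.3 to 4126), and passed the filter through the nub1 libraries alone. Of 18 other mechanosensory and TRP channel genes, 7 were tested, 5 rose and 1 fell, with a median log2 fold change of 0.28, and 4 rose without nub1 replicate 3. The TRP channel genes wtrw and pyx, which act in sensing humidity and heat, rose from 3.48 to 9.69 and from 0.708 to 1.80 CPM (by 1.48 ± 0.15 and 1.34 ± 0.20 on the log2 scale; edgeR adjusted p = 0.000148 and 0.000591). Trpm and the mechanically gated channel gene Piezo rose by 0.16 and 0.28 on the log2 scale (edgeR adjusted p = 0.00301 and 0.00442). unc79, NaCP60E, Nha2, wtrw, pyx, Trpm and Tmc each overlap another annotated gene, so their reads may be shared.

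**Figure D5:**
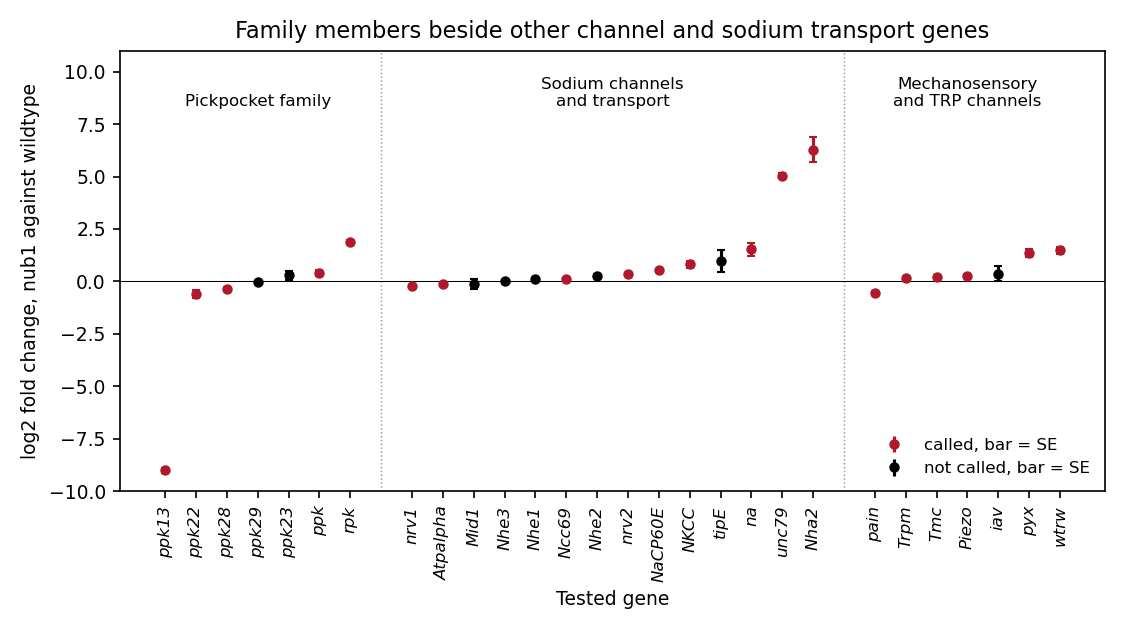
Log2 fold changes of nub1 against wildtype with their SE for the tested members of the pickpocket family, the sodium channel and transport list and the mechanosensory and TRP channel list; red points were called at an adjusted p under 0.05. ppk13 at -9.02 is the lowest point, and unc79 at 5.04 and Nha2 at 6.28 are the highest.

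Markers of other cell types in which pickpocket genes could be read were measured in the same libraries. Of 8 tested tracheal markers 4 were higher and 2 lower, with a summed level of 3090 to 3233 CPM in wildtype and 3354 to 3444 CPM in nub1 libraries. Of 6 tested neuronal markers of 10, 2 were higher and 2 lower, with sums of 57.2 to 64.0 and 56.5 to 59.7 CPM. The sum was mostly elav and futsch, while the synaptic gene nSyb was at 0.0609 and 0.106 CPM. Of 8 sensory organ precursor markers 1 was higher and 3 lower (95.8 to 103 and 89.9 to 99.4 CPM), and of 4 tested glial markers 2 were higher and 2 lower (313 to 340 and 255 to 293 CPM). Nearly all of the glial sum was Gli, at 320 against 263 CPM. The other lower glial marker, repo, was at 0.233 and 0.0478 CPM, while moody and wrapper rose. Lower tracheal markers numbered 1 without wildtype replicate 1 or 2, higher neuronal markers 1 without wildtype replicate 2 or nub1 replicate 1, 2 or 3, and higher precursor markers 2 without nub1 replicate 3.

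Of 9 haemocyte markers 3 were higher and 3 lower, with sums of 219 to 289 CPM in wildtype and 445 to 480 CPM in nub1 libraries. Of 7 myoblast markers 3 were higher and 2 lower (565 to 623 and 481 to 531 CPM). Ama was the largest part of the myoblast sum and fell from 309 to 174 CPM. Him fell too, while twi, htl and stumps rose. Of 7 muscle markers 5 were higher and 0 lower (43.6 to 57.7 and 58.4 to 74.6 CPM), and of 5 fat body markers 1 was higher and 1 lower (17.9 to 51.9 and 21.6 to 26.5 CPM). All 6 salivary gland glue genes were lower (7.16 to 8.96 and 1.92 to 2.71 CPM). The libraries overlapped for Sgs3 (edgeR adjusted p = 0.0460), whose call was lost with limma-voom (0.0583) and when wildtype replicate 1 or 2 or nub1 replicate 1 or 3 was dropped (0.156, 0.112, 0.0801 and 0.116). Lower haemocyte markers numbered 1 without nub1 replicate 1, 2 or 3, and lower myoblast markers 1 without wildtype replicate 1 or 2. Lower fat body markers numbered 0 without nub1 replicate 1 or 3 and 3 without wildtype replicate 3. The salivary gland, glial, myoblast and wing disc marker sums were all lower in nub1 libraries. The wing disc sum includes nub (329 against 10.9 CPM) and pdm2 (57.1 against 0.107 CPM), so it cannot be read apart from the targeted gene. Of the 9 wing disc markers, 2 were called higher. The haemocyte, muscle and tracheal sums were all higher in nub1 libraries. Tracheal markers moved in both directions, with verm going from 501 to 802 CPM and pio from 739 to 456 CPM. Sums of the neuronal, precursor and fat body markers overlapped between the groups. Most of the haemocyte sum was the collagen genes Col4a1 (99.3 against 206 CPM) and vkg (64.5 against 145 CPM), which rose with NimC1, while srp, He and eater fell and Hml, Pxn and crq were not called. The part of any of these cell types in the family's results was not tested.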

How the data were processed

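The authors deposited 1 table of unnormalized counts of reads for each gene. A directional kit made the libraries, per the labels' protocols. The submitters' processing notes name bcl2fastq, HISAT2, featureCounts, Bowtie2, deepTools and build dm6 without roles or versions. No source used here gives the annotation, strand setting or treatment of overlapping genes. A symbol was found for 17710 of 17807 gene IDs, the other 97 holding 0.687% of counts.

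Genes passing filterByExpr (9186) were scaled by TMM and tested with edgeR's quasi-likelihood test (robust), genotype being the only term, and p-values were adjusted by Benjamini-Hochberg over all of them. SEs are the absolute log2 fold change over the root of the F statistic. CPM uses the summed counts of tested genes. Ratios of pooled reads have exact conditional 95% intervals, which cover counting error only. Versions were edgeR 4.0.16 and DESeq2 1.42.0 under R 4.3.3, with limma 3.58.1 for voom and matplotlib 3.10.9 for plots. The code was tested on simulated data. Positions, neighbours and gene spans come from RefSeq Release 6.

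Members and the 13 gene lists were chosen with earlier results of these data known. Of 118 list symbols 117 matched, and dys, a synonym of several genes, was left out. Named genes are all members, up to 4 called genes of each channel list with the smallest adjusted p, and the nearest gene on each side of each called member. Other list genes and the stretch around ppk13 were named after their values were seen. Comparisons of member sequences and promoters were not made here. The labels do not say that same-numbered libraries pair. The correlations of their deviations from the group means were 0.0426, 0.0346 and 0.248, the last being the largest between any wildtype and nub1 library. With 3 libraries per group these values cannot decide whether the libraries pair.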

Additional observations from a re-analysis of the deposited data

How the results depend on the processing

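Counts of calls and the log2 fold changes of the 7 tested members were recomputed with another scaling, filter, test or threshold, with a replicate block and without each library in turn. The family's summed CPM was recomputed with library sizes only and without each library. Ratios of pooled reads, shares, levels per kb and marker sums were not. ppk13 and rpk were called in the same direction in all of those in which a log2 fold change was computed. Leaving out single libraries gave 1 to 2 members called higher and 1 to 3 called lower. At an adjusted p under 0.01, 1 member was higher and 1 lower, and 1418 genes of all were lower in place of 2195. With no filter, 3 members were higher, ppk10 being added. With the replicate block, which changed no call of a member, 2 members were higher and 3 lower, and over all genes 2451 and 2437. The log2 fold change of ppk29 was 0.0042 with library sizes only, the other sign. Higher genes made up 59.6% of all calls with library sizes only and 50.5% with TMM, with the same members called. The cause of these differences was not tested. A count of 0 limits what can be said of members without reads to levels of 0.0128 CPM or more in nub1 discs. For ppk11, ppk16 and ppk25 it sets no such limit, because their reads may have been left uncounted or given to another gene.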
